A study of Mus musculus with 36 samples.

Results

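The transcripts of 7 genes of the red cell lineage were followed in whole liver: the adult alpha-globin genes Hba-a1 (ENSMUSG00000069919) and Hba-a2 (ENSMUSG00000069917), the adult beta-globin gene Hbb-b1 (ENSMUSG00000052305), Alas2, Slc4a1, Epb42 and Fech. They are 7 of the 36066 rows of the expression table and were chosen by gene symbol. The beta-globin row carries the symbols Hbb-b1 and Hbb-bs together. The neighbouring adult beta-globin gene Hbb-bt was set beside them and is not counted among the 7. The livers came from 36 mice in 12 groups of 3, 1 library a mouse, all 4 months old, with an F or an M before the name of the group for females or males. Mice carrying Gulo-/- lack gulonolactone oxidase, the last enzyme of ascorbate (vitamin C) synthesis, and depend on ascorbate in the drinking water. GL40, GL05 and GL01 mice were all Gulo-/- and had 0.4%, 0.05% and 0.01% ascorbate in their water from weaning, in that order. GL00 mice were Gulo-/-, had 0.4% ascorbate until 3 months of age and none for the last 4 weeks. GLR40 mice were Gulo-/-, had 0.4% ascorbate until 2 months of age, 4 weeks with none, and then 4 weeks of 0.4% again. WT00 mice were wild type and received no ascorbate. All mice were fasted overnight and the liver was taken after exsanguination, so that the libraries hold RNA of every cell in the tissue, including blood cells left in it. The knockout is present in every cell of the body, and the sets of mice differ in the age at which ascorbate was withdrawn. Values are TPM, a share of all transcripts in a library corrected for transcript length and scaled to the same total in every mouse, and can be compared between genes.

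Hemoglobin is a tetramer of alpha- and beta-globin chains that each carry heme. Red cell precursors make heme with their own first enzyme, 5-aminolevulinate synthase 2 (Alas2), while other cells use Alas1, and ferrochelatase (Fech) closes the pathway in all cells by inserting iron into protoporphyrin. Slc4a1 encodes band 3, the anion exchanger of the red cell membrane, and Epb42 encodes protein 4.2, which links band 3 to the membrane skeleton. The liver makes red cells in the fetus, and in adult mice the bone marrow and spleen do. Young red cells (reticulocytes) in blood still hold globin messenger RNA.

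The labels were checked first. The Y-linked Ddx3y was at most 0.875 TPM in the 18 females and at least 15.1 TPM in the 18 males. Gulo was at 144 to 269 TPM in wild type and at 16.4 to 52.2 TPM in Gulo-/- mice. The hepatocyte marker Alb was between 37562 and 62791 TPM. The liver of FGL40 mouse 2695 also held pancreatic transcripts, at 10362 TPM over 10 acinar genes, where the next mouse reached 61.7 TPM. It is 1 of the 3 controls of the main female comparison, so results are given without it where they changed. Log2 values of any pair of mice correlated at Pearson r of 0.963 to 0.995, and no libraries were identical. The depth of each library is unknown from TPM.

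The female mice without ascorbate stood apart from the other 11 groups in every adult globin. In FGL00 livers the 4 adult globin genes together made up 0.480% ± 0.142 (SD, n = 3) of all TPM, against 0.115% ± 0.0132 (SD, n = 3) in FGL40 livers. Hbb-b1, Hba-a2, Hba-a1 and Hbb-bt rose between 4.08- and 4.63-fold by the ratio of means. Alas2 and Slc4a1 rose with them, and Epb42 and Fech did not pass the test. In males the same withdrawal gave globin levels that overlapped with the controls, and Alas2 fell. In bulk tissue, more or fewer cells of a type and more or less RNA per cell cannot be told apart.

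Hbb-b1 was the most abundant member. Its level was 1257, 2230 and 2385 TPM in the 3 FGL00 mice. It was 556, 452 and 431 TPM in FGL40, 362, 432 and 751 TPM in FGL01, and 444, 475 and 377 TPM in FGL05. It was 335, 382 and 373 TPM in FGLR40 and 288, 447 and 649 TPM in FWT00. The lowest FGL00 mouse, number 2788, was thus above the highest of the 15 other females, an FGL01 mouse. In males Hbb-b1 was 336, 475 and 513 TPM in MGL00 and 246, 414 and 269 TPM in MGL40. It was 349, 565 and 579 TPM in MGL01, 415, 308 and 293 TPM in MGL05, 424, 344 and 358 TPM in MGLR40, and 426, 304 and 833 TPM in MWT00. The male groups overlapped one another, and a wild type mouse, number 2683, held the highest male level.

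Against FGL40, Hbb-b1 was 4.08-fold higher in FGL00 by the ratio of means, a log2 fold change of 1.98 ± 0.30 (SE) on the log2(TPM + 1) scale with an adjusted p of 3.33e-04 (limma, Benjamini-Hochberg over all genes tested, called at an adjusted p under 0.05). The FGL00 mice of 552, 947 and 950 TPM for Hba-a1 compared with 217, 173 and 167 TPM in FGL40. The mouse with the lowest Hba-a1 in FGL00 was again number 2788, and the groups did not overlap. Hba-a1 was 4.39-fold higher (log2 fold change 2.10 ± 0.29, limma adjusted p = 1.91e-04). For Hba-a2 the FGL00 mice had 1161, 1945 and 2068 TPM and the FGL40 mice 451, 409 and 395 TPM. Hba-a2, the more abundant alpha gene by these values, was 4.12-fold higher (log2 fold change 2.00 ± 0.28, limma adjusted p = 2.28e-04). Hbb-bt had 199, 331 and 380 TPM in FGL00 and 75.2, 63.7 and 57.9 TPM in FGL40. It was 4.63-fold higher (log2 fold change 2.15 ± 0.30, limma adjusted p = 2.41e-04).

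**Figure D1:**
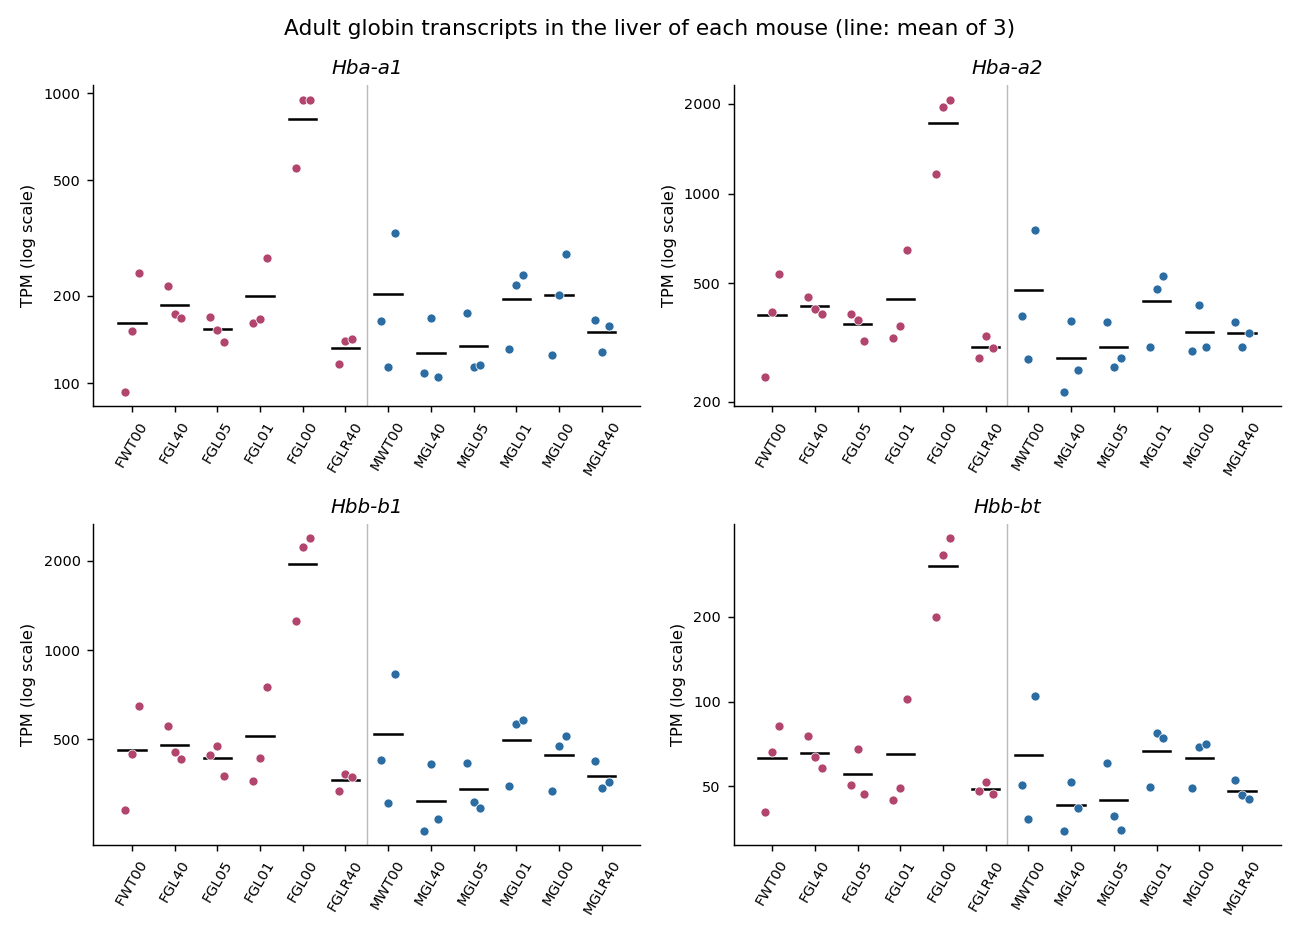
TPM on log axes of the 4 adult globin genes in each of 36 livers (points, females in magenta and males in blue) with the mean of 3 mice as a line. FGL00, at group means of 816 TPM for Hba-a1 and 1957 TPM for Hbb-b1, lies above the other 11 groups in all 4 panels without overlap.

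Of the 7 members, 5 were called higher in FGL00 than in FGL40 and 0 lower, where 9.56% of the 18050 genes tested were called higher, 13.7% lower and 23.2% in either direction. The median log2 fold change of the members was 1.53, beside -0.02 over all genes tested. All 7 members had TPM above 0 in every mouse and passed the filter on low values. Leaving out any of the 6 mice, FGL40 mouse 2695 included, kept 5 members called.

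By rank of group means, FGL00 was first for the 4 globin genes and for Slc4a1, and above the second group without overlap each time. For the globin genes no other pair of neighbouring groups in the order was separated. Hba-a1 ran from 202 TPM in MWT00 to 127 TPM in MGL40 over the 11 remaining groups, Hba-a2 from 475 to 281 TPM and Hbb-b1 from 521 to 310 TPM.

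The chains stayed in step. The summed TPM of Hba-a1 and Hba-a2 over that of Hbb-b1 and Hbb-bt was 1.13 ± 0.0425 (SD, n = 3) in FGL00 and 1.11 ± 0.0488 (SD, n = 3) in FGL40, and between 0.977 and 1.23 in all 36 mice. Hba-a2 over Hba-a1 was 1.09 to 2.63, with the lowest ratio in MGL00 mouse 2787, whose Hba-a1 was the highest of its group at 279 TPM while its Hba-a2 was 305 TPM. The split between near-identical genes is uncertain. Of the 31-base words in the Hba-a2 coding transcripts of the GENCODE M21 annotation, 91.0% also occur in Hba-a1, and 58.7% of those in Hbb-bs occur in Hbb-bt, so that reads are shared out by estimation. No 31-base word is shared between Hba-a1 and Hbb-bs or between Alas1 and Alas2.

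The promoters of the globin genes and Alas2, which rose together in FGL00, are shown beside that of Epb42, which did not pass the test, as the 250 bases before the RefSeq start (GRCm38.p6). They lie at chr11:32283422-32283671 for Hba-a1 (plus strand), chr7:103827929-103828178 for Hbb-bs (minus), chr7:103813924-103814173 for Hbb-bt (minus), chrX:150547167-150547416 for Alas2 (plus) and chr2:121036878-121037127 for Epb42 (minus). Capitals mark 3 motifs on either strand: the letters of GATA factors, spelled AGATAA, or else AGATAG, or else TGATAA, or else TGATAG; those of the CACC box of Klf1, spelled CCACACCC, or else CCACGCCC, or else CCGCACCC, or else CCGCGCCC; and an ATA box, spelled TATAAA, or else TATATAA, or else CATATAA. In Hbb-bt the ATA box holds 2 overlapping matches.
Hba-a1: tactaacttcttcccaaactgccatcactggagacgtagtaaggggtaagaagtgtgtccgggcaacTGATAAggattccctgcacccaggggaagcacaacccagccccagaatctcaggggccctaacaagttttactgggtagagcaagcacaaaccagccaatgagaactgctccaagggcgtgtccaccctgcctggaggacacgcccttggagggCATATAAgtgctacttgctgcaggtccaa
Hbb-bs: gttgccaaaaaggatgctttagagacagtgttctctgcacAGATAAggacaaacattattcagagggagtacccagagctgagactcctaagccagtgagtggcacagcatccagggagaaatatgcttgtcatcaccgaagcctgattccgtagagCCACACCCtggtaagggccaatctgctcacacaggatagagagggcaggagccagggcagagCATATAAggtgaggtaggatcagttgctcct
Hbb-bt: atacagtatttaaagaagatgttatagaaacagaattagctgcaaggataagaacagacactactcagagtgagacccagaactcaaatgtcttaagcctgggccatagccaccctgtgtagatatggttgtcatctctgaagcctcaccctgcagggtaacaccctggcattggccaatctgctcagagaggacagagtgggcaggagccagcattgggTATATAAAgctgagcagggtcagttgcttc
Alas2: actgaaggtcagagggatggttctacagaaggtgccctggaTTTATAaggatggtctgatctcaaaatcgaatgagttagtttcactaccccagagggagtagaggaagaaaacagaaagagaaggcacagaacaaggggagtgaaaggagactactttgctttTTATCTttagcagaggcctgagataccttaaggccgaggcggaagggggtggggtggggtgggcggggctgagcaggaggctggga
Epb42: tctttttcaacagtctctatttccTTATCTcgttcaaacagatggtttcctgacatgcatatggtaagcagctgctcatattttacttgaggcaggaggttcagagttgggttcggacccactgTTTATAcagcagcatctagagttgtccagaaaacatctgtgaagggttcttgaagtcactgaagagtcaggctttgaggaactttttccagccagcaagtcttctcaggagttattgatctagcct
The Hba-a2 promoter shares an unbroken run of 247 bases with that of Hba-a1 and is not repeated. A GATA match was found in Hba-a1, Hba-a2, Hbb-bs, Alas2 and Epb42 but not in Hbb-bt, and 26.5% of the 32851 promoters of the same length hold one. A CACC match was found in Hbb-bs alone of the 6, against 12.2% of all promoters. An ATA box ended 23 to 26 bases before the start in all 4 globin genes. In Alas2 and Epb42 its letters lay on the opposite strand at least 121 bases before the start, and 14.7% of all promoters hold them somewhere. The matches are a description of letters.

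Alas2, which makes the first intermediate of heme in red cell precursors, was the member with opposite changes in the 2 sexes. The 3 FGL00 mice had 19.3, 29.7 and 27.7 TPM, and the 3 FGL40 mice 9.71, 8.54 and 6.21 TPM. The other females had 7.14, 9.62 and 10.4 TPM in FGL01, 8.10, 6.33 and 6.59 TPM in FGL05, 7.27, 9.52 and 6.83 TPM in FGLR40, and 9.76, 9.53 and 10.8 TPM in FWT00. All 15 females outside FGL00 were thus below the lowest FGL00 mouse. Alas2 was 3.13-fold higher in FGL00 than in FGL40 (log2 fold change 1.53 ± 0.18, limma adjusted p = 7.54e-05).

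Males outside MGL00 had more Alas2 than the 15 females outside FGL00, without overlap. The MGL40 mice had 59.9, 57.4 and 78.8 TPM, the MWT00 mice 72.5, 89.6 and 64.9 TPM, and the MGLR40 mice 56.5, 58.4 and 76.9 TPM. The MGL05 mice had 46.3, 65.7 and 48.2 TPM, the MGL01 mice 48.2, 42.8 and 19.1 TPM, and the MGL00 mice 16.8, 29.8 and 20.2 TPM. MGL00 lay below MGL40 without overlap, and MGL01 overlapped with both MGL00 and MGL05. Alas2 was 2.93-fold lower in MGL00 than in MGL40 (log2 fold change -1.54 ± 0.28, limma adjusted p = 0.00351). It was the only one of the 7 members called in that comparison, in which 12.3% of 17661 genes were called in either direction and 2.45% lower. The call held without any 1 of the 6 mice. In MGL01 the level was 1.78-fold lower than in MGL40, with an adjusted p of 0.0936 (limma), and the groups did not overlap.

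**Figure D2:**
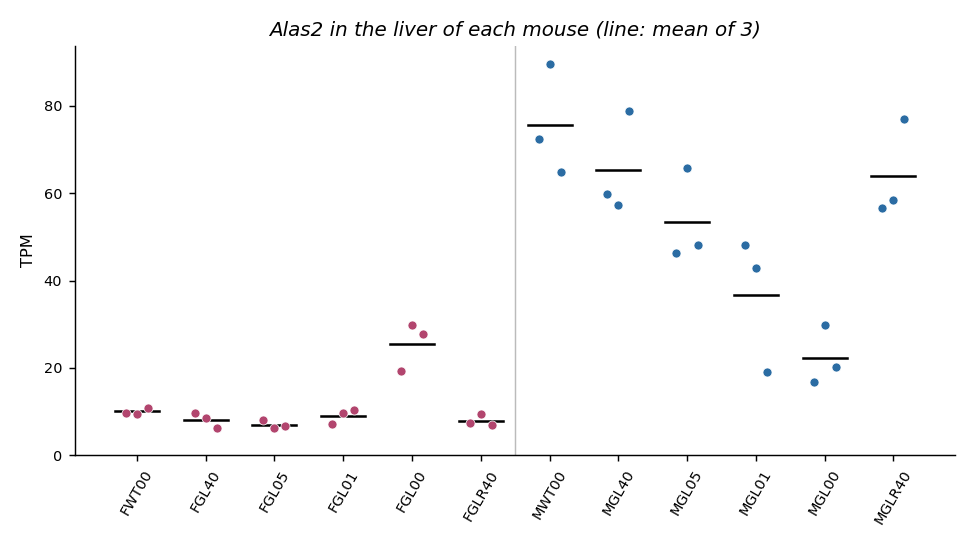
Alas2 TPM in each of 36 livers, with the mean of 3 mice as a line. FGL00 mice (19.3 to 29.7 TPM) lie above all other females, and MGL00 mice (16.8 to 29.8 TPM) lie below all males of MGL40, MGL05, MWT00 and MGLR40.

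The change of Alas2 with withdrawal differed between the sexes by 3.07 ± 0.35 (SE) on the log2 scale, tested as an interaction in 1 model of all 36 mice (limma adjusted p = 4.67e-06). The groups without ascorbate met at similar levels, 25.6 ± 5.55 TPM (SD, n = 3) in FGL00 and 22.3 ± 6.71 TPM (SD, n = 3) in MGL00, and overlapped. Over all groups Alas2 was 4.69-fold lower in females than in males (log2 difference -2.15 ± 0.22, limma adjusted p = 3.30e-09). Without the GL00 mice, an alternative chosen after seeing the data, the log2 difference was -2.62.

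The genes whose profile over the 36 mice was most like that of Alas2 include none of the listed red cell genes. The 5 with the highest Pearson r of log2(TPM + 1) were Slc15a5 (r = 0.927), Cyp4a12b (0.918), Cyp4a12a (0.915), the complement component C9 (0.911) and Col5a3 (0.909), among them the male-biased liver cytochromes Cyp4a12a and Cyp4a12b, which are paralogs. Within the 18 females alone r was 0.83 for C9, 0.62 for Slc15a5, 0.32 for Col5a3, 0.085 for Cyp4a12b and -0.01 for Cyp4a12a. Within the 18 males it was 0.61, 0.74, 0.86, 0.86 and 0.89 for the same genes. Against Hbb-b1, Alas2 had r = -0.08 over 36 mice, 0.93 in the 18 females and -0.33 in the 18 males. These correlations are descriptions, since points share their group, library scaling and, over 36 mice, the difference between the sexes.

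**Figure D3:**
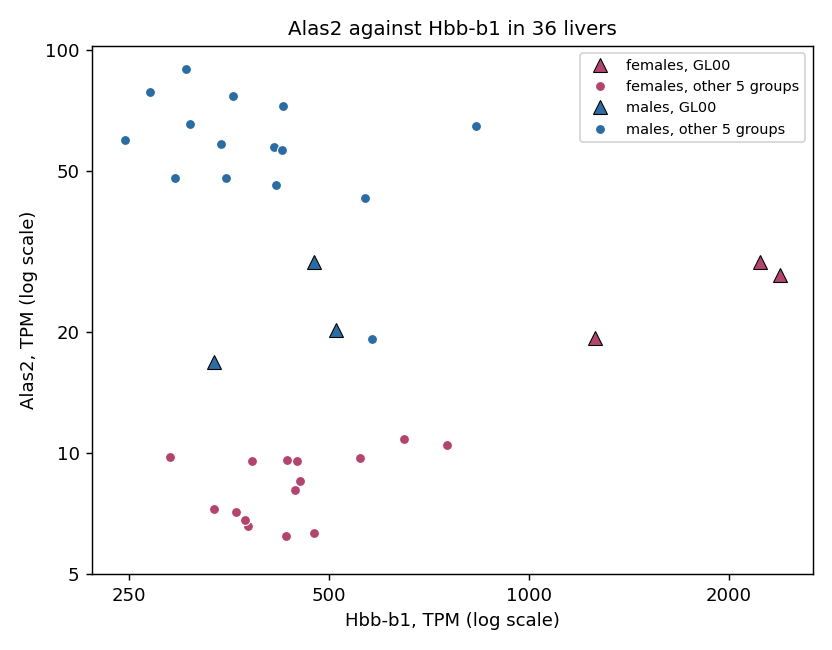
Alas2 TPM against Hbb-b1 TPM in 36 livers on log axes, with GL00 mice as triangles and the other 5 groups as circles. The 3 FGL00 mice lie to the right (Hbb-b1 of 1257 TPM and above) and above the other females, while the 3 MGL00 mice lie below most males at Hbb-b1 of 336 to 513 TPM.

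Slc4a1 was below 1 TPM in every mouse outside FGL00. Its levels were 1.27, 1.54 and 1.60 TPM in FGL00 and 0.131, 0.0878 and 0.0687 TPM in FGL40. The 33 mice outside FGL00 ran from 0.0114 to 0.807 TPM with a median of 0.102 TPM, and the highest of them was MGL01 mouse 2712. No mouse of another group reached the FGL00 levels. The ratio of means was 15.3 against FGL40, and the log2 fold change of 1.17 ± 0.12 (limma adjusted p = 2.45e-05) is much smaller because of the added 1 TPM at such low values. With 0.1 TPM added instead it was 3.01. Slc4a1 was not called in MGL00 against MGL40, at 0.267, 0.131 and 0.101 TPM against 0.0344, 0.0203 and 0.113 TPM (adjusted p = 0.591, limma).

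Epb42, the partner of band 3, stayed low throughout. It was 0.296, 0.294 and 0.444 TPM in FGL00 and 0.502, 0.320 and 0.367 TPM in FGL40, so that the groups overlapped. The log2 fold change was -0.05 with a 95% interval of -0.22 to 0.11 (limma adjusted p = 0.679). The added 1 TPM shrinks these log2 values too, since Epb42 was at most 0.544 TPM in any mouse. Group means of Epb42 ran from 0.183 TPM in MGL40 to 0.399 TPM in FGL01, and no neighbouring groups in that order were separated. The interval leaves out the log2 fold change of Slc4a1.

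Fech, the last enzyme of heme synthesis in all cells, was abundant and the steadiest member, with a median coefficient of variation within groups of 4.25%, beside 23.5% for Hbb-b1. It was 89.4, 87.7 and 96.0 TPM in FGL00 and 103, 110 and 111 TPM in FGL40. The FGL00 mice lay below FGL40 without overlap, but the log2 fold change of -0.24 ± 0.09 had an adjusted p of 0.0527 (limma). FGL01, at 85.6, 85.0 and 102 TPM, was also lower than FGL40 (log2 fold change -0.25, adjusted p = 0.0529, limma). Against FWT00, Fech was called lower in FGL00 (log2 fold change -0.25, adjusted p = 0.0399, limma) and in FGL01 (log2 fold change -0.26, adjusted p = 0.0492, limma), where the groups overlapped. It was the 1 member called in FGL01 against FWT00, where 16.4% of genes were. In MGL00 Fech was 113, 119 and 117 TPM and overlapped with MGL40, with no call.

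**Figure D4:**
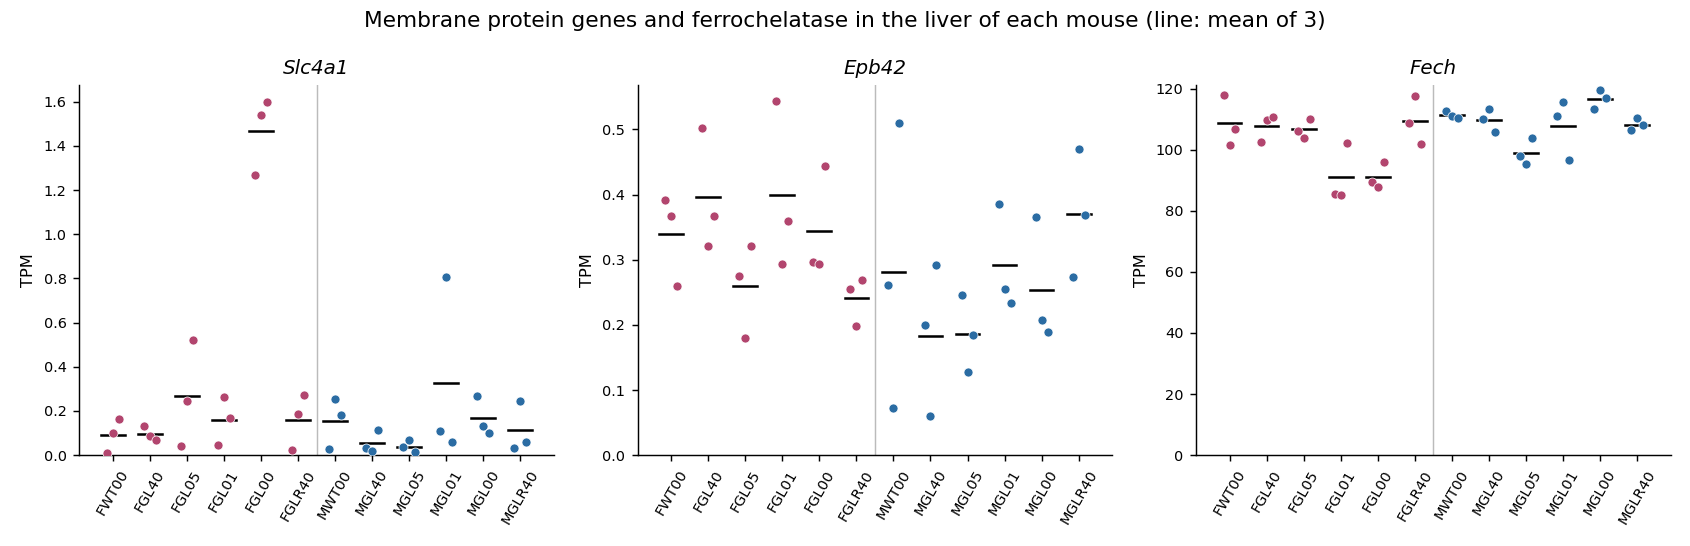
TPM of Slc4a1, Epb42 and Fech in each of 36 livers on axes from 0, with the mean of 3 mice as a line. Slc4a1 exceeds 1 TPM only in the 3 FGL00 mice, Epb42 overlaps across groups, and Fech is lowest in FGL01 and FGL00, both at 91.0 or 91.1 TPM on average.

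At the lower doses no member was called against GL40 in either sex. Of the members, 0 were called in FGL01 against FGL40 although 19.9% of genes were (limma, 1 member at an unadjusted p under 0.05). The globins differed from FGL40 by log2 fold changes of 0.07 for Hba-a1 (95% interval -0.54 to 0.68), 0.02 for Hba-a2 and 0.04 for Hbb-b1. FGL00 against FGL01 had 5 members called higher and 0 lower, where 0.709% of genes were called higher and 4.30% in either direction. Hbb-b1 was 3.80-fold and Alas2 2.82-fold higher in FGL00 than in FGL01 (limma adjusted p = 0.00379 and 0.00146). In FGL05 against FGL40, 0 members and 0 of 18050 genes were called, with 801 genes at an unadjusted p under 0.05. In males, 0 members were called in MGL01 against MGL40 (3.43% of genes, 2 members at an unadjusted p under 0.05) and 0 in MGL05 against MGL40 (0.0566% of genes, 1 member at an unadjusted p under 0.05). Hbb-b1 was 1.61-fold higher in MGL01 than in MGL40, with an adjusted p of 0.250 (limma).

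The members that rose in FGL00 were lower in mice given ascorbate again. FGLR40 against FGL00 had 5 members called lower and Fech called higher, where 22.0% of genes were called in either direction and 5.30% lower. Hba-a1 was 6.15-fold, Hbb-b1 5.38-fold, Alas2 3.24-fold and Slc4a1 9.17-fold lower (limma adjusted p between 6.36e-05 and 1.58e-04), and the log2 fold change of Fech was 0.26 (adjusted p = 0.0387, limma). Against FGL40 the FGLR40 mice had 0 members called, where 2.27% of genes were (limma, 1 member at an unadjusted p under 0.05). The log2 fold changes of the 3 globin members were -0.48 for Hba-a1, -0.45 for Hba-a2 and -0.39 for Hbb-b1. The 3 FGLR40 mice lay below all 3 FGL40 mice in each of them and in Epb42, as they did in 7.21% of genes. In males Alas2 was 2.87-fold higher in MGLR40 than in MGL00 (adjusted p = 0.00494, limma), the 1 member called, where 9.13% of genes were. MGLR40 against MGL40 had 0 members and 0.00566% of genes called (limma, 0 members at an unadjusted p under 0.05). These comparisons share FGL00, FGL40 or their male counterparts.

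**Figure D5:**
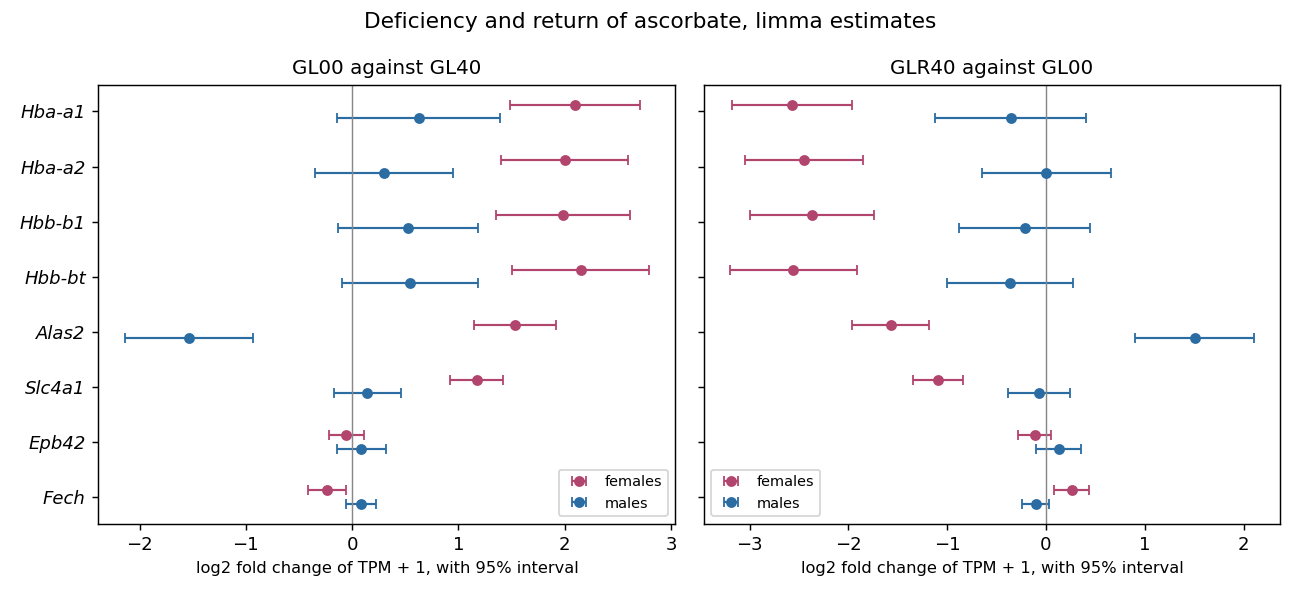
Log2 fold changes of TPM + 1 (points) with 95% intervals (bars) from limma for the 7 members and Hbb-bt, females in magenta and males in blue, GL00 against GL40 on the left and GLR40 against GL00 on the right. In females the intervals of the 4 globins, Alas2, Slc4a1 and Fech leave out 0, Fech on the other side from the rest, and in males only that of Alas2 does, opposite to its side in females.

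No member was called between wild type and GL40 mice. FWT00 against FGL40 had 0 members called and 0.183% of genes (limma, 0 members at an unadjusted p under 0.05), and MWT00 against MGL40 had 0 members and 0.453% of genes (1 member at an unadjusted p under 0.05). Against FWT00, FGL00 had 5 members called higher and Fech lower, where 25.1% of genes were called in either direction and 7.73% higher. Hba-a1 was 5.04-fold and Hbb-b1 4.24-fold higher than in FWT00 (limma adjusted p = 7.25e-05 and 2.02e-04). MGL00 against MWT00 had Alas2 alone called, 3.40-fold lower (adjusted p = 0.00162, limma), where 10.8% of genes were called in either direction and 4.04% lower.

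The effect of withdrawal differed between the sexes in 6 of the 7 members by the interaction test, where 13.7% of 17721 genes were called. It was larger in females by 1.47 for Hba-a1, 1.70 for Hba-a2, 1.46 for Hbb-b1 and 1.03 for Slc4a1 on the log2 scale (limma adjusted p = 0.0427, 0.00974, 0.0307 and 9.04e-04). For Fech the difference was -0.33 (adjusted p = 0.0332, limma), with opposite signs in the 2 sexes, neither of them called alone. With median-ratio scaling the Fech difference was -0.14 (adjusted p = 0.475, limma). With 1 mouse left out the interaction stayed called in 4 of 12 fits for Hba-a1, 6 of 12 for Hbb-b1 and 4 of 12 for Fech, and 3 members were called without FGL00 mouse 2790, FGL40 mouse 2695 or FGL40 mouse 2696. Over all groups, Hbb-b1 (1.69-fold) and Hba-a2 (1.67-fold) were called higher in females than in males and Alas2 lower, where 44.2% of genes were called in either direction. The call held in 5 of 9 alternatives for Hbb-b1 and in 2 of 9 for Hba-a2, and for Hba-a2 in 14 of 36 fits that left out 1 mouse. These alternatives include a call that also asks for a ratio above 2, which neither gene could meet at 1.69- and 1.67-fold. Without the GL00 mice the log2 difference was 0.17 for Hbb-b1 and 0.10 for Hba-a2, neither called. The count over all groups was 6 members without FWT00 mouse 2641 and 5 without MWT00 mouse 2683.

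Within groups the globin genes varied together from mouse to mouse. Deviations of log2(TPM + 1) from the group mean correlated at r = 0.96 between Hba-a1 and Hbb-b1, 0.90 between Hba-a1 and Hba-a2, and 0.97 between Hbb-b1 and Hbb-bt over 36 mice. Those of Slc4a1 and Hbb-b1 correlated at r = 0.13 and those of Alas2 and Hbb-b1 at 0.01. Slc4a1 was at very low levels, with a median coefficient of variation within groups of 76.7%, and the added 1 TPM flattens its deviations. Its low r therefore cannot tell whether it varied with the globins. MWT00 mouse 2683 had the highest male level of Hba-a1 (329 TPM), Hba-a2 (756 TPM) and Hbb-b1 (833 TPM). Its Slc4a1 was 0.183 TPM, beside a median of 0.102 TPM in the 33 mice outside FGL00. The globin paralogs share reads and every gene shares the scaling to TPM, so these values are descriptions.

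Among the genes with profiles most like those of Hba-a1 and Hbb-b1 over the 36 mice were the other globin genes (r = 0.966 to 0.988) and Rbm17, an RNA splicing factor, at r = 0.727 with Hba-a1 and 0.726 with Hbb-b1. For Slc4a1 they included Hbb-bt, Hbb-b1, Hba-a2 and Hba-a1 (0.818 to 0.778). With these globin genes Slc4a1 had r of 0.888 to 0.894 in the 18 females and 0.177 to 0.334 in the 18 males. For Fech the nearest were Acnat1 (0.813), Mrpl14 (0.801), Rnf5 (0.791), Dennd4c (0.790) and Cyp2j5 (0.790), among which Mrpl14 is a mitochondrial ribosomal protein gene.

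Other lists are read against the same shares of all genes in FGL00 against FGL40, 9.56% higher and 13.7% lower. Of 15 cytosol and maturation genes 14 were tested in FGL00 against FGL40, and 6 rose and 1 fell, with a median log2 fold change of 0.24 beside -0.02 over all genes. Among those that rose, Bnip3l, which removes mitochondria from maturing red cells, went from 55.8 to 75.6 TPM (adjusted p = 0.00631, limma) and Bpgm, which makes the 2,3-bisphosphoglycerate of red cells, from 10.3 to 16.8 TPM (adjusted p = 0.0444, limma). Mkrn1, an ubiquitin ligase, rose from 22.0 to 28.7 TPM (adjusted p = 0.0324, limma). In males Bnip3l was 64.1 TPM in MGL40 and 60.1 TPM in MGL05. It was 72.0 TPM in MGL01 and 76.2 TPM in MWT00, near its FGL00 level, and no member was called in these groups against MGL40. Bpgm was 11.7 TPM in MGL40 and 8.44 TPM in MGL00, and its change differed between the sexes (interaction adjusted p = 0.00777, limma). Of 19 membrane and skeleton genes 15 were tested, and 2 rose, the member Slc4a1 among them, while Gypc and Icam4 fell, shares near those of all genes. Gypc, glycophorin C, was 2.57-fold lower (11.8 against 4.58 TPM, adjusted p = 2.45e-05, limma). Of 8 rows of globin genes that are not members, embryonic ones among them, 6 were at 0 in all 3 FGL00 mice, and only Hbb-bt was tested.

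Heme synthesis did not move as a whole with Alas2. Of its 18 genes, all tested and the members Alas2 and Fech included, 3 rose, Alas2 among them, and 6 fell in FGL00 against FGL40, where 13.7% of all genes fell, with a median log2 fold change of -0.21 beside -0.02 over all genes. Alad, the second enzyme, fell 1.51-fold to 87.9 TPM (adjusted p = 0.00507, limma). The porphyrin transporter Abcb6 fell from 44.3 to 33.8 TPM (adjusted p = 0.0266, limma), and Slc25a39, a mitochondrial glutathione carrier, rose from 311 to 372 TPM (adjusted p = 0.0168, limma). The change of Alad differed between the sexes (interaction adjusted p = 0.00681, limma), and Alad was not called in MGL00 against MGL40. Alas1, the synthase of other cells (named after its values were seen), had 302 TPM in FGL00 and 365 TPM in FGL40 (adjusted p = 0.655, limma), so Alas2 in FGL00 stood at 25.6 TPM beside a far more abundant Alas1.

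Among the transcription factors and receptors of the lineage, 10 of 12 were tested and 2 rose in FGL00, where 9.56% of all genes did. Tfrc, the transferrin receptor that brings iron into cells, rose 2.97-fold to 21.3 TPM (adjusted p = 7.17e-04, limma), and Ldb1, a partner of GATA factors, rose 2.36-fold to 62.7 TPM (adjusted p = 4.76e-04, limma). Ldb1 was 60.9 TPM in FGL01 too (adjusted p = 0.00123 against FGL40, limma), where no globin was called. Tfrc also rose in MGL00, 2.04-fold (adjusted p = 0.0236, limma), and its change did not pass the interaction test (adjusted p = 0.350). Klf1, a factor of globin genes, was 5.73 TPM in FGL00 and 3.96 TPM in FGL40 (adjusted p = 0.208, limma).

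Liver genes of iron control also moved. Hamp encodes hepcidin, the hormone that closes the iron exporter ferroportin. It was 135, 272 and 232 TPM in FGL00 and 3729, 5002 and 4180 TPM in FGL40. The lowest of the 33 mice outside FGL00 was at 1218 TPM. Hamp fell 20.2-fold (log2 fold change -4.38 ± 0.27, adjusted p = 4.50e-07, limma) and Hamp2 11.9-fold (adjusted p = 1.06e-04, limma). In MGL00 Hamp was 4141, 3100 and 1482 TPM and overlapped with MGL40 (2527, 3596 and 1625 TPM), and the sexes differed by -4.50 on the log2 scale (interaction adjusted p = 9.56e-07, limma). Hp and Hpx, which bind free hemoglobin and heme in plasma, rose in both sexes. Hpx was 3.35-fold higher in FGL00 and 3.12-fold higher in MGL00 (limma adjusted p = 1.34e-05 and 9.81e-04), and Hp 2.61- and 2.43-fold (4.48e-05 and 0.00127), with no call in the interaction (adjusted p = 0.876 and 0.870). Of the 14 genes in this list 12 were tested, and 4 rose and 6 fell.

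Markers of neutrophils and platelets were also higher in FGL00. Of 12 neutrophil markers 9 were tested, and 7 rose and 0 fell in FGL00 against FGL40. The summed level was 47.8 to 94.7 TPM in FGL00 and 12.7 to 15.3 TPM in FGL40, and none of the 12 was at 0 in all 3 mice of either group. It was 13.6 to 54.3 TPM in FGL01, overlapping with FGL00, and 11.3 to 22.4 TPM in MGL00 against 4.59 to 10.9 TPM in MGL40, groups in which no globin was called. S100a9 rose 5.10-fold and S100a8 5.47-fold (limma adjusted p = 7.50e-04 and 0.00244). Of 10 platelet and megakaryocyte markers 9 were tested and 6 rose, Pf4 among them by 2.83-fold (adjusted p = 0.0273, limma). Their summed level was 26.3 to 43.0 TPM in FGL00 and 21.1 to 23.5 TPM in FGL40, where Gp1bb was at 0 in all 3 mice. In FGL01 it was 33.4 to 42.7 TPM, overlapping with FGL00, while the globin sum was 895 to 1767 TPM in FGL01 and 3168 to 5783 TPM in FGL00. The part of neutrophils or platelets in the rise of the globins was not tested.

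Markers of dividing cells, lymphocytes and Kupffer cells had no call upward in FGL00. Of 14 cell division genes, all tested, 0 rose and 2 fell, a share near the 13.7% of all genes, with a summed level of 10.1 to 13.1 TPM in FGL00 and 15.6 to 19.3 TPM in FGL40. Rrm2, which supplies nucleotides for DNA synthesis, had a log2 fold change of -0.57 (adjusted p = 0.0369, limma). Of 11 B and T lymphocyte markers 0 were called in FGL00 against FGL40, and 8 rose in FGL01, where 14.3% of all genes did. Their summed level was 53.1 to 64.8 TPM in FGL00 and 26.6 to 40.1 TPM in FGL40, higher without overlap, and the sum was not tested. Igkc was 34.2, 51.3 and 340 TPM in FGL01 and 11.3 to 19.2 TPM in FGL40 (adjusted p = 0.0254, limma), so that 1 mouse carried most of the FGL01 mean. Of 12 Kupffer cell markers 0 rose and 1 fell in FGL00, the exporter gene Slc40a1, by a log2 fold change of -0.90 (adjusted p = 0.00136, limma), while C1qb had a log2 fold change of 0.38 with no call (adjusted p = 0.121, limma). In MGL00, 8 of the 12 Kupffer markers rose, where 9.85% of all genes did, Cd5l among them from 55.9 to 88.6 TPM (adjusted p = 0.0149, limma). Of 9 hepatocyte genes 2 rose and 1 fell in FGL00, among them Apoa1 by 1.93-fold (adjusted p = 0.00553, limma).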

How the data were processed

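Whole liver RNA of 36 mice (12 groups of 3) was sequenced as poly(A) libraries that keep the strand. The authors trimmed reads with fastp 0.20.0 and deposited TPM values per gene, estimated with kallisto 0.46.2 on Ensembl 104 transcripts, with no further normalization. The labels put each mouse in its group. TPM are not counts and hold no depth, so that precision is known only from the spread between mice, which were separate animals. Values were transformed as log2(TPM + 1) and fitted with limma 3.58.1 (R 4.3.3), 1 mean per group, with an intensity trend and robust variances, over 18 mice of a sex for genes above 0 TPM in at least 13. Sex and interaction models used 36 mice and genes above 0 in at least 26, the former with the treatment group as covariate. p-values were two-sided and Benjamini-Hochberg adjusted over all genes tested. The fit was tested on simulated data. Ratios of means are of untransformed TPM. One mouse named as a female in its title was used as a male, as its animal name and sex label give. Members and gene lists were chosen with earlier results of these data known. Of each list, at most the 4 most abundant genes called in GL00 or GL01 against GL40 were named, and for 5 members the 5 genes of highest correlation (mean of at least 1 TPM, no predicted genes), with others named after their values were seen. Some genes that meet this rule are not reported here. Of the listed genes, Hbb-b2, Hbb-bh0, Ahsp, Tf and Trac were not analysed here. Promoter sequences and start sites are from RefSeq (GRCm38.p6), of which 6 of the 8 genes matched, and transcripts from GENCODE M21. Alternatives were other scalings, pseudocounts, filters, models and leaving out each mouse.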

Additional observations from a re-analysis of the deposited data

Results flagged for a closer look

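The change of 6 members and of Hbb-bt with ascorbate withdrawal differed between females and males by the interaction test of 1 model of 36 mice (limma, Benjamini-Hochberg over 17721 genes). As the log2 fold change of FGL00 over FGL40 minus that of MGL00 over MGL40, Alas2 differed by 3.07 (adjusted p = 4.67e-06), Hba-a2 by 1.70 (adjusted p = 0.00974) and Hbb-bt by 1.60 (adjusted p = 0.0172). Hba-a1 differed by 1.47 (adjusted p = 0.0427), Hbb-b1 by 1.46 (adjusted p = 0.0307) and Slc4a1 by 1.03 (adjusted p = 9.04e-04). With 1 mouse left out, Hba-a1 stayed called in 4 of 12 fits (adjusted p up to 0.135), Hbb-b1 in 6 of 12 (up to 0.0921) and Fech in 4 of 12 (up to 0.0774). Fech differed in the other direction, by -0.33 (adjusted p = 0.0332), and by -0.14 with no call under median-ratio scaling (adjusted p = 0.475). Alas2 is the member whose direction was called in both sexes and was opposite. Epb42 was not called (-0.14, adjusted p = 0.565).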

How the results depend on the processing

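The 5 members called in FGL00 against FGL40 and the 1 in MGL00 against MGL40 stayed called under every alternative run, Fech joined the former in 5 alternatives (6 members), and 0 called values reversed. With genes of at least 1 TPM in at least 3 mice, Slc4a1 passed the filter in females only through the FGL00 mice. Its call under that filter is therefore no added support. In FGL01 against FGL40 the count went from 0 to 1 (Fech, lower) with median-ratio scaling, without the Mup genes, with genes of at least 1 TPM in at least 3 mice, in 1 model of 36 mice and with neither trend nor robust variances, and was 0 to 1 when mice were left out in turn (1 without FGL01 mouse 2724). In MGL01 against MGL40 it went from 0 to 1 (Alas2) in 1 model of 36 mice. Females against males had 3 members called, 1 with an added ratio above 2, 1 without the GL00 mice (chosen after seeing the data), 2 with median-ratio scaling, without the Mup genes, with 0.1 TPM added, with no filter or with neither trend nor robust variances, and 2 to 6 when mice were left out (6 without FWT00 mouse 2641 and 5 without MWT00 mouse 2683). In that comparison Fech, not called in the main fit, was called lower in females in 2 of 9 alternatives (limma adjusted p from 1.26e-05 to 0.453 over the 9). Equal counts can therefore hold different members. The interaction count of 6 was 3 to 5 when mice were left out (3 without FGL00 mouse 2790, FGL40 mouse 2695 or FGL40 mouse 2696). Among interactions, Fech lost the call with median-ratio scaling (-0.14) and without the Mup genes (-0.24), Slc4a1 with 0.1 TPM added (adjusted p = 0.0560, limma) and Hba-a1 with no filter (adjusted p = 0.0646, limma). In these the cause was not tested. Over single members and Hbb-bt, 992 values were recomputed, and 898 kept their side of the threshold, 24 of them uncalled values that changed sign, 65 lost the call and 29 gained it. The adjusted p of Fech in FGL00 against FGL40 was 0.0140 to 0.125 (limma) over 9 alternatives. Groups of 3 mice limit every value, and the unknown depth limits Slc4a1 and Epb42, which were under 2 TPM in all mice. No paired analysis was possible because the animal numbers are unique to each mouse and no groups share them.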
